A study of Mus musculus with 8 samples.

Results

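Ttr, Sostdc1, Kl, Prlr, Folr1, Clic6, Aqp1 and Cldn2 are genes that the epithelium of the choroid plexus transcribes at high levels. They were taken by symbol from the table of read counts, where they made up 8 of 55416 genes. They were measured by RNA-seq in the cerebral cortex of heterozygous knock-in mice carrying AGO2_L192P/+ (called L192P) and in that of wild-type controls (WT). Each genotype had 4 libraries. The substitution was introduced with CRISPR/Cas9 into C57BL/6JUke embryos, together with a silent change in the PAM, and founders were then bred with C57/Bl6 wild types. The study's methods number the mouse residue differently from the labels, and the labels' name is kept here. Age and sex were not given in the sources used here, and no label says whether the libraries came from separate animals, so the p-values measure the spread between these libraries.

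The choroid plexus is a folded, vascular tissue inside the brain ventricles. Its epithelium is a single sheet of cuboidal cells joined by tight junctions, which secretes cerebrospinal fluid and moves hormones, folate, ions and water between blood and fluid. The sheet rests on a stroma with fibroblasts and capillaries, and it is continuous with the ciliated ependymal cells that line the ventricle wall. Argonaute 2, the product of Ago2, binds miRNAs and lowers the output of their target mRNAs.

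Of the 8 genes, 4 were matched in the promoter table used here, and a run of each is shown because the 8 genes varied together from library to library. Each run is the 250 bases before an annotated start, read on the gene's own strand from the RefSeq promoter table of GRCm38.p6. The Kl run lies at chr5:150952357-150952606, the Aqp1 run at chr6:55336049-55336298, the Prlr run at chr15:10223656-10223905 and the Cldn2 run at chrX:139800558-139800807, all on the plus strand. Capitals mark the letters of a forkhead-type motif, TGTTTAC, which begins 215 bases before the annotated start of Prlr (position -215).
Kl: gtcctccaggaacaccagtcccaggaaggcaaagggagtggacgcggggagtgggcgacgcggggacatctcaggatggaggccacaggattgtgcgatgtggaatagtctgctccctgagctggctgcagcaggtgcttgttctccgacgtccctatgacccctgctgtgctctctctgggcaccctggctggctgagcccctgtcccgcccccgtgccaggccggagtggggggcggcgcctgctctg
Aqp1: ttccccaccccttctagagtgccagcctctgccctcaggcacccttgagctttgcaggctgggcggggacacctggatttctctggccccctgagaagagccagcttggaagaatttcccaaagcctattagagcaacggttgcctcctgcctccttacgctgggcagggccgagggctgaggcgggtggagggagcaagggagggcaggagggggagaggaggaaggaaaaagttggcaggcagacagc
Prlr: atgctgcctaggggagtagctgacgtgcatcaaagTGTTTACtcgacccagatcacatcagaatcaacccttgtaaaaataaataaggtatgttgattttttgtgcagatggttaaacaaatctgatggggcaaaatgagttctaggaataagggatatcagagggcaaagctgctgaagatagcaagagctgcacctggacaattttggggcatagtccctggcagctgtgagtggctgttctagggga
Cldn2: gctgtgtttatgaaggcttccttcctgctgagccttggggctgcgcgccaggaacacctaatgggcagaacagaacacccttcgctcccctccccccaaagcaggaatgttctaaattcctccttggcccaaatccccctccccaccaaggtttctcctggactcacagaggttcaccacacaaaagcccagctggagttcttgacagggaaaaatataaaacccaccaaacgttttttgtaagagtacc

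Across the 300-base windows that hold these runs, both strands were searched for that motif and for TAATCC, the core recognised by homeodomain proteins of the Otx2 type, and the letters of the motifs do not overlap each other. TGTTTAC was found in 1 of 6 windows of the 4 genes (16.7%, the Prlr window shown), where Prlr has 3 windows, and in 3.65% of 32851 windows of all genes. TAATCC was found in 0 of the 6 windows and in 7.06% of all windows. In 29 windows of 23 other choroid plexus genes, from the wider list given below, the counts ran the other way. TGTTTAC was found in 0 of those 29 and TAATCC in 3 (10.3%). These are matches of letters and no measure of binding.

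Library totals ran from 20396357 to 43575900 counts, with WT replicate 2 the deepest. Of all genes, 18627 received an adjusted p when L192P was compared with WT by DESeq2, and 253 of them (1.36%) had an adjusted p under 0.05, which is what "called" means below. The cortical neuron gene Slc17a7, the vesicular glutamate transporter of cortical excitatory neurons and a check of the labelled tissue, was at 28887 to 34033 normalized counts in the 8 libraries. A normalized count is a read count divided by the DESeq2 size factor of its library. The 8 choroid plexus genes passed the filter on low counts. Single library counts ran from 40 for Cldn2 in WT replicate 4 to 53372 for Ttr in WT replicate 2, so counting error alone was at most 15.8% for any of them and at most 0.947% for Ttr.

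Between genotypes, 0 of the 8 genes were called, against 1.36% of all genes tested. Only Prlr had an unadjusted p under 0.05 by DESeq2, and edgeR and limma-voom called 0 and gave 0 of 8 an unadjusted p under 0.05. L192P and WT libraries overlapped for each of the 8 genes, so 0 of 8 had separate groups, against 5.97% of all genes tested. The log2 fold change of L192P against WT was above 0 for 6 genes and below 0 for 2, with a median of 0.10 beside 0.0019 over all genes tested. In bulk tissue, fewer cells of a type and less RNA per cell cannot be told apart, and this holds for every value below.

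**Figure D1:**
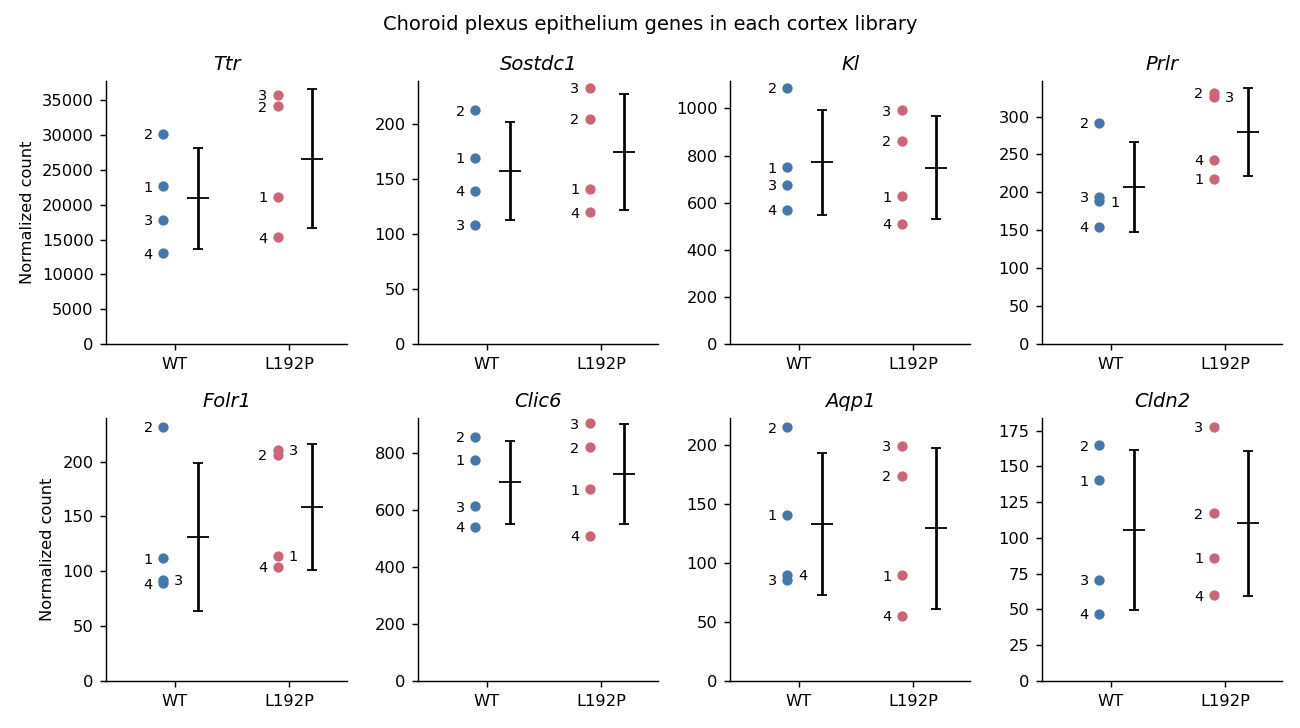
Normalized counts of the 8 genes in each library, with the replicate number beside each point, and the mean with SD (n = 4) to the right of each group. WT and L192P overlap for every gene, and the libraries numbered 2 of both genotypes and L192P replicate 3 lie at the upper end in most panels.

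Secreted proteins and their membrane relatives come first. Ttr encodes transthyretin, which the epithelium secretes into cerebrospinal fluid and which carries thyroid hormone and retinol-binding protein. Its normalized counts were 21163, 34143, 35796 and 15365 in L192P replicates 1 to 4 and 22633, 30149, 17852 and 13045 in WT replicates 1 to 4. L192P replicates 2 and 3 and WT replicate 2 were high, replicate 4 of each genotype was lowest in its group, and the groups overlapped. The means were 26617 ± 9954 in L192P and 20919.8 ± 7293 in WT (SD, n = 4). The log2 fold change was 0.35 with an SE of 0.37 and a 95% interval from -0.38 to 1.07. The adjusted p by DESeq2 was 0.892, and permuting the genotype labels over the normalized counts (exact, two-sided) gave p = 0.343, where 4 libraries against 4 allow no p below 0.0286. The gene (ENSMUSG00000061808) lies at GRCm39 chromosome 18, 20797253 to 20807467, plus strand, and shares 70 exonic bases with Gm16090 on the opposite strand.

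Sostdc1 encodes a secreted antagonist of bone morphogenetic protein and Wnt signalling. L192P replicates 1 to 4 held 141, 205, 233 and 119.8 normalized counts of Sostdc1, and WT replicates 1 to 4 held 169, 212, 109 and 139. The highest library was L192P replicate 3 and the lowest WT replicate 3, with the other libraries of both genotypes interleaved between them. The means of 175 ± 53.0 in L192P and 157 ± 44.2 in WT gave a log2 fold change of 0.14 (SE 0.23, 95% interval -0.31 to 0.59), with a DESeq2 adjusted p of 0.950 and an exact permutation p of 0.60. Its position is GRCm39 chromosome 12, 36364137 to 36368451, plus strand (ENSMUSG00000036169).

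Kl encodes klotho, a membrane protein that acts as co-receptor for the hormone FGF23 and is also shed into cerebrospinal fluid. Kl stood at 627, 864, 992 and 511 normalized counts in L192P replicates 1 to 4 and at 750.3, 1087, 676 and 571 in WT replicates 1 to 4. Here WT replicate 2 was the highest library and L192P replicate 4 the lowest, and the groups overlapped almost fully. The means were 748 ± 219 in L192P and 771 ± 223 in WT, and the fold change on the log2 scale was -0.04 (SE 0.29, 95% interval -0.62 to 0.53), with a DESeq2 adjusted p of 0.993 and an exact permutation p of 0.914. Leaving out WT replicate 2 turned the direction, to 0.17. Kl lies at GRCm39 chromosome 5, 150876072 to 150917284, plus strand (ENSMUSG00000058488).

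Among the receptors, Prlr had the smallest p of the 8 genes. It encodes the receptor of the pituitary hormone prolactin. Its normalized counts were 218, 331, 326 and 243 in L192P replicates 1 to 4 and 188, 291, 194 and 155 in WT replicates 1 to 4. Every L192P library lay above WT replicates 1, 3 and 4, and WT replicate 2 lay above L192P replicates 1 and 4, so the groups overlapped through that library alone. With means of 279.6 ± 57.7 in L192P and 207 ± 58.9 in WT, Prlr had a log2 fold change of 0.42 (SE 0.19, 95% interval 0.04 to 0.80). The unadjusted DESeq2 p was 0.0301, the adjusted p was 0.427 and the exact permutation p was 0.143. Without WT replicate 2 the log2 fold change of Prlr was 0.64 and its DESeq2 adjusted p 0.0470, in a fit that called 0.691% of the genes it tested, and 1 of 8 genes then had separate groups. Over all alternatives the adjusted p of Prlr ran from 0.0470 to 0.862. With the replicate number as a block, the log2 fold change was 0.44 (SE 0.15) and the adjusted p 0.0797, in a fit that called 4.25% of its genes, 533 in all. The gene (ENSMUSG00000005268) lies at GRCm39 chromosome 15, 10177258 to 10349959, plus strand. It shares 203 exonic bases with Gm21973 on its own strand, and 305 and 1058 with Gm41268 and Gm41269 on the opposite strand, and as the strand setting of the counting was not stated, reads there cannot be assigned with certainty.

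Folr1 encodes folate receptor alpha, which carries folate across the epithelium into cerebrospinal fluid. The L192P replicates 1 to 4 had 114, 206, 211 and 104 normalized counts of Folr1 and the WT replicates 1 to 4 had 112, 232, 92.3 and 89.0. The libraries fell into a high set, made of L192P replicates 2 and 3 and WT replicate 2, and a low set of the other 5 libraries, each with both genotypes. The means were 159 ± 57.6 in L192P and 131 ± 67.7 in WT, with a log2 fold change of 0.27 (SE 0.42, 95% interval -0.56 to 1.095), a DESeq2 adjusted p of 0.946 and an exact permutation p of 0.657. The log2 fold change of Folr1 was 0.10 without L192P replicate 3 and 0.69 without WT replicate 2 (DESeq2 adjusted p = 0.283). Folr1 (ENSMUSG00000001827) is at GRCm39 chromosome 7, 101507537 to 101520014, minus strand.

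The remaining genes serve ion and water movement and the junctions. Clic6 encodes a member of the chloride intracellular channel family and varied least, with a coefficient of variation of 21.0% over the 8 libraries. It was at 672, 819, 903 and 508 normalized counts in L192P replicates 1 to 4 and at 776, 856, 612 and 539.7 in WT replicates 1 to 4. Again L192P replicate 3 and WT replicate 2 led and replicate 4 of both genotypes trailed. The means were 725 ± 174 and 696 ± 145, and the log2 fold change was 0.06 (SE 0.23, 95% interval -0.40 to 0.52), with a DESeq2 adjusted p of 0.986 and an exact permutation p of 0.771. Its locus is GRCm39 chromosome 16, 92282624 to 92338739, plus strand (ENSMUSG00000022949).

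Aqp1 encodes the water channel of the ventricle-facing membrane and had the widest range, 3.91-fold between its highest and lowest library. Counts of Aqp1 after normalization were 89.7, 174, 199 and 55.1 in L192P replicates 1 to 4, and 141, 215, 85.8 and 90.1 in WT replicates 1 to 4. The L192P group held the lowest library, its replicate 4, and the WT group the highest, its replicate 2. Means of 129.6 ± 68.3 in L192P and 133 ± 60.2 in WT gave a log2 fold change of -0.04 (SE 0.51, 95% interval -1.04 to 0.95), a DESeq2 adjusted p of 0.998 and an exact permutation p of 0.943. Its direction turned to 0.29 without WT replicate 2. The position is GRCm39 chromosome 6, 55313068 to 55325540, plus strand (ENSMUSG00000004655).

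Cldn2 encodes claudin-2, a pore-forming claudin of leaky tight junctions, and had the largest coefficient of variation, 45.9%. Normalized counts of Cldn2 were 86.0, 117, 178 and 59.9 in L192P replicates 1 to 4 and 140.2, 165, 70.6 and 46.8 in WT replicates 1 to 4. L192P replicate 3 was highest and WT replicate 4 lowest, and the genotypes interleaved. The log2 fold change was 0.05 (SE 0.51, 95% interval -0.95 to 1.06) between means of 110.2 ± 50.7 in L192P and 106 ± 56.0 in WT, with a DESeq2 adjusted p of 0.996 and an exact permutation p of 0.886. It turned to -0.27 without L192P replicate 3. Cldn2 (ENSMUSG00000047230) lies at GRCm39 chromosome X, 138701480 to 138712135, plus strand.

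The intervals show how much these libraries could resolve. The SE of the log2 fold change was largest for Aqp1 and Cldn2, at 0.51 each, and smallest for Prlr at 0.19 and for Clic6 and Sostdc1 at 0.23. Missing the threshold therefore does not show equal levels in both genotypes.

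**Figure D2:**
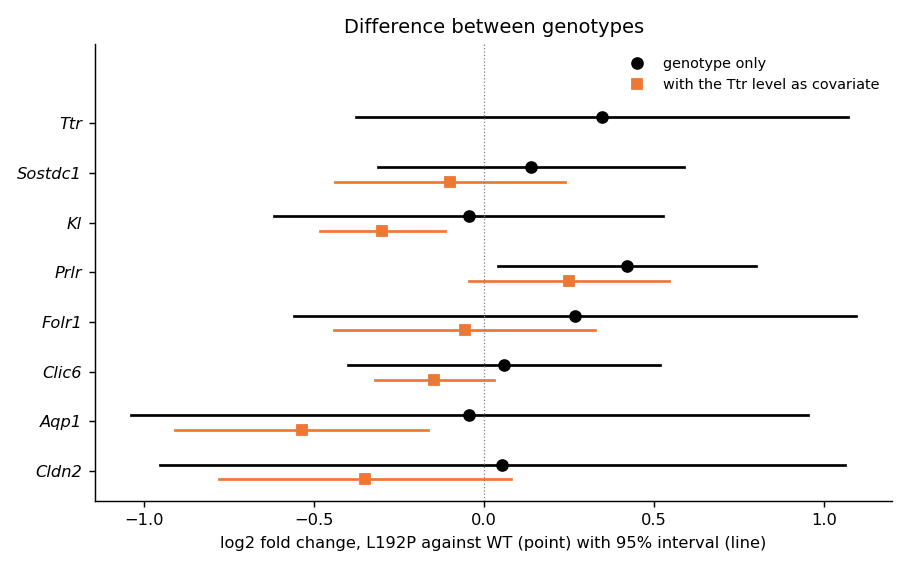
The log2 fold change of L192P against WT for each gene, with its 95% interval, from the fit with genotype alone (circles) and from the fit that also holds the Ttr level of each library (squares, 7 genes). With genotype alone only the Prlr interval lies off 0, and with the Ttr level as covariate the intervals are narrower for all 7 genes.

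Levels between genes were compared per kilobase of merged exons. Ttr stood at 12457 ± 4525 normalized counts per kilobase (SD over 8 libraries), rank 18 of the 17074 genes whose mean reached 10 normalized counts and whose exons were annotated. Clic6 followed at 156 ± 32.8 normalized counts per kilobase, then Sostdc1 at 93.2 ± 25.9 and Kl at 81.4 ± 21.96, against a median of 70.2 over those genes. Aqp1 was at 44.1 ± 20.05 per kilobase, Cldn2 at 31.4 ± 14.4, Folr1 at 22.01 ± 9.11 and Prlr at 13.1 ± 3.58. The steps from Ttr to Clic6 and from Clic6 to Sostdc1 exceeded the SDs of both genes. Sostdc1 and Kl, Aqp1 and Cldn2, Cldn2 and Folr1, and Folr1 and Prlr lay closer together than the larger of their SDs. The Prlr value rests on 18561 merged exonic bases summed over all its annotated isoforms, the longest of the set.

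What the 8 genes shared was their order of libraries. L192P replicate 3 and WT replicate 2 were among the 3 highest libraries for 8 of 8 genes, and L192P replicate 2 for 7 of 8. L192P replicate 4, WT replicate 3 and WT replicate 4 were each among the 3 lowest for 7 of 8. The exception at the high end was Cldn2, for which WT replicate 1 stood above L192P replicate 2. Those at the low end were Kl and Aqp1, for which L192P replicate 1 stood below a WT library, and Prlr, for which WT replicate 1 stood below L192P replicate 4.

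A shared profile was formed as the mean over the 8 genes of log2(normalized count + 1), each gene centred on its mean over the libraries. It was 0.59 in L192P replicate 3, 0.55 in WT replicate 2 and 0.42 in L192P replicate 2, near 0 in WT replicate 1 (0.06), and then -0.19 in L192P replicate 1, -0.37 in WT replicate 3, -0.51 in L192P replicate 4 and -0.54 in WT replicate 4. High and low libraries thus occurred in both genotypes, and the highest and the lowest library differed by 1.13 on the log2 scale, or 2.20-fold. The genotype means were 0.08 ± 0.51 in L192P and -0.08 ± 0.49 in WT (SD, n = 4), a difference of 0.16 that was smaller than either SD. Without L192P replicate 3 this difference was -0.02, and without WT replicate 2 it was 0.36.

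**Figure D3:**
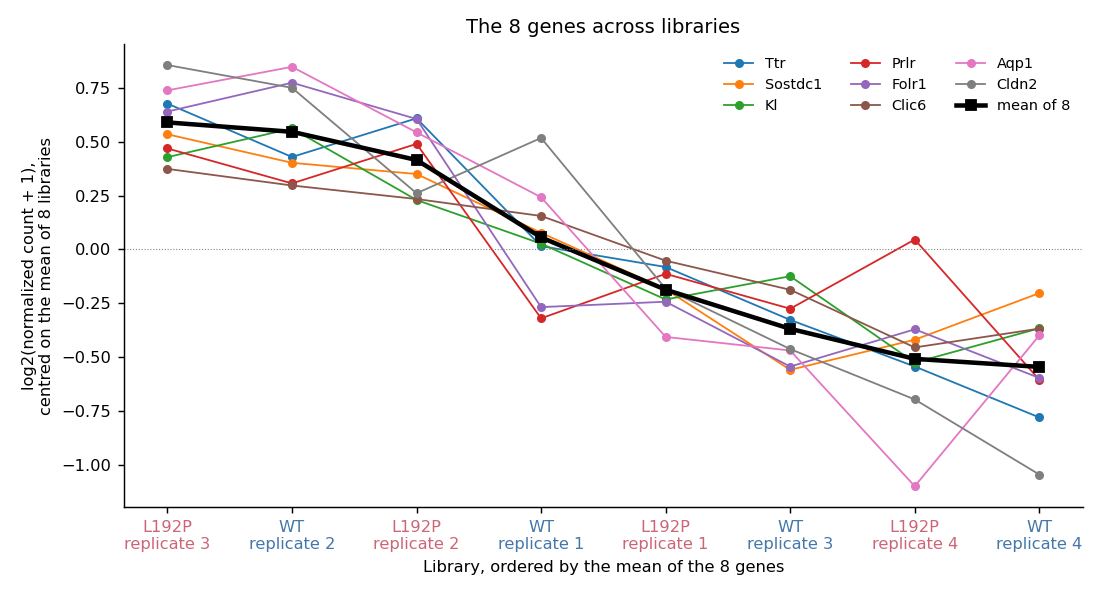
Centred log2(normalized count + 1) of each of the 8 genes (thin lines) and their mean (black squares) in the 8 libraries, ordered by the mean, from 0.59 in L192P replicate 3 to -0.54 in WT replicate 4. Both genotypes are spread along the order, and Prlr in L192P replicate 4 and Aqp1 in the same library lie farthest from the mean on either side.

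Same-numbered libraries were also set side by side. L192P minus WT on the shared profile was -0.24 for replicate 1, -0.13 for replicate 2, 0.96 for replicate 3 and 0.04 for replicate 4. All 8 genes were higher in L192P than in WT for replicate 3, whereas 2 of 8, 2 of 8 and 4 of 8 were higher for replicates 1, 2 and 4. Set side by side in this way, replicate 3 gave the largest difference. The difference between the genotype means did not depend on that number alone. It was -0.02 without L192P replicate 3, -0.0003 without WT replicate 4 and 0.06 without WT replicate 3. Replicate 1 of both genotypes held the middle of the order at ranks 4 and 5. It was the only pair with almost no Xist RNA and the only pair with RNA of Ddx3y on chromosome Y. Ddx3y was at 1524 normalized counts in L192P replicate 1, 1561 in WT replicate 1 and 0 in every other library. The main fit, with genotype as its only term, pooled this pair with the rest.

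Expressed per 1000 normalized counts of Ttr, the other genes were steadier than as levels. The coefficient of variation over the 8 libraries was smaller for the ratio than for the level in 7 of 7 genes. For Folr1 it was 15.5% for the ratio and 41.4% for the level, for Aqp1 23.1% and 45.4%, and for Cldn2 22.2% and 45.9%. Kl went from 27.0% to 17.8%, Sostdc1 from 27.8% to 20.7%, Prlr from 27.3% to 21.8% and Clic6 from 21.0% to 17.8%. Folr1, whose level varied 2.60-fold, thus kept between 4.95 and 7.68 counts per 1000 of Ttr in every library.

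The ratios of L192P and WT overlapped for 7 of 7 genes, narrowly for Kl. Kl stood at 29.6, 25.3, 27.7 and 33.3 per 1000 Ttr counts in L192P replicates 1 to 4 and at 33.2, 36.1, 37.8 and 43.8 in WT replicates 1 to 4, so that only L192P replicate 4 and WT replicate 1 crossed. The mean ratio of Kl was 29.0 ± 3.38 in L192P and 37.7 ± 4.49 in WT. For Prlr the highest ratio was 15.8 in L192P replicate 4, and the other 7 libraries ran from 8.33 to 11.8.

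The comparison between genotypes was repeated with the Ttr level of each library, as centred log2(normalized count + 1), beside genotype in DESeq2, a fit added after seeing the data. It called 0.917% of all genes it tested and 0 of the other 7 choroid plexus genes. The SE was smaller than with genotype alone for 7 of 7 genes, and the log2 fold change was below 0 for 6 and above 0 for 1. Kl, with a log2 fold change of -0.30 (SE 0.09), and Aqp1, with -0.54 (SE 0.19), had unadjusted DESeq2 p-values of 0.00144 and 0.00470 and adjusted p-values of 0.0910 and 0.173. Prlr was the gene above 0, at 0.25 (SE 0.15, adjusted p = 0.638 in the same DESeq2 fit). Because Ttr was itself higher on average in L192P, these are differences relative to Ttr and not in level.

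A wider list of 24 genes of the same epithelium, drawn up from textbook knowledge, was read from the same fit. It held the ion channels Kcne2 and Kcnj13, the transcription factors Otx2, Lmx1a and Msx1, the junction genes Cldn1 and Cldn3 and a set of transporters and enzymes. Counts were found in all 8 libraries for 23 of the 24, the exception being Lrp2. Of 23 genes with an adjusted p, 0 were called by DESeq2, against 1.36% of all genes tested, 12 were above 0 and the median log2 fold change was 0.02. The unadjusted DESeq2 p was under 0.05 for 1 gene, Slc13a4, and edgeR and limma-voom each called 0 with 2 genes at an unadjusted p under 0.05. With Ttr as covariate the fit called 1 gene, Enpp2, against 0.917% of all genes it tested, and 7 of 24 had an unadjusted DESeq2 p under 0.05. Of those, Enpp2, Kcne2, Slc4a5, F5, Mfrp and Cab39l were below 0 relative to Ttr and Slc13a4 was above 0.

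The libraries that led and trailed for the 8 genes mostly did so in the wider list. Of the 24 genes, 22 were highest in L192P replicate 2, L192P replicate 3 or WT replicate 2, beside 41.9% of all genes tested, and 21 were lowest in L192P replicate 4, WT replicate 3 or WT replicate 4, beside 31.4%. The 21 include Lrp2, which was tied at 0 in L192P replicate 4 and WT replicate 1. The summed normalized counts of the list ran from 12476 to 19432 in L192P and from 15811 to 22217 in WT. Most of each sum was Enpp2 alone, at 9232 to 14474 in L192P and 12251 to 17260 in WT. With each gene weighted alike on the centred scale, the list ran from -0.44 to 0.40 in L192P and from -0.33 to 0.45 in WT.

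The 6 genes of the list with the highest mean are given by name. Enpp2, which encodes autotaxin and is also made by oligodendrocytes, was at 9232 to 14474 normalized counts in L192P and 12251 to 17260 in WT, with WT replicate 2 standing above the rest of its group. Its log2 fold change was -0.17 (SE 0.20, DESeq2 adjusted p = 0.914), and it was the gene called with Ttr as covariate, at -0.34 (SE 0.09, DESeq2 adjusted p = 0.0157). Slc13a4, a sulfate transporter gene, was at 279, 411, 469 and 255 normalized counts in L192P replicates 1 to 4 and at 259.5, 316, 180.3 and 199 in WT replicates 1 to 4. The libraries of L192P were the higher ones on average, and WT replicates 1 and 2 overlapped them. Slc13a4 had a log2 fold change of 0.56 (SE 0.20) with a DESeq2 unadjusted p of 0.00635 and an adjusted p of 0.195. Cab39l, Car12, the monoamine transporter gene Slc29a4 and Ecrg4, which encodes a secreted peptide precursor, had log2 fold changes of -0.16, 0.10, 0.19 and -0.01 and DESeq2 adjusted p-values from 0.529 to 0.998. Their coefficients of variation over the 8 libraries were 8.56%, 9.82%, 23.3% and 31.1%, so Cab39l and Car12 varied little between libraries.

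Likeness to the shared profile was measured as the root mean square difference, over the 8 libraries, between a gene's centred log2(normalized count + 1) and the profile, so that 0 is an identical course. It was computed for the 17145 genes whose mean reached 10 normalized counts. Their median was 0.469 and their lowest hundredth lay under 0.309. A gene at 1 constant level would stand at 0.440. The 8 genes stood between 0.127 for Ttr and 0.284 for Cldn2, and since each of them is part of the mean, they were also set against the mean of the other 7. The difference was then 0.145 for Ttr, 0.159 for Kl, 0.176 for Sostdc1, 0.197 for Clic6, 0.202 for Folr1, 0.298 for Prlr, 0.311 for Aqp1 and 0.324 for Cldn2, with 6 of 8 under 0.309.

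Of the wider list, 22 genes were abundant enough, and 13 of them stood under 0.309 and 19 under 0.372, the limit of the lowest twentieth. The nearest were Ecrg4 at 0.182, the bicarbonate transporter gene Slc4a5 at 0.184, Kcne2 at 0.200 and Tmem72 at 0.207. Cldn3, with a mean of 10.7 normalized counts, was farthest at 0.663. Among the named genes with the highest means, Car12 at 0.344 and Cab39l at 0.388 followed the profile least. These differences describe 8 libraries that each contribute to every gene, and genes are not independent replicates.

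**Figure D4:**
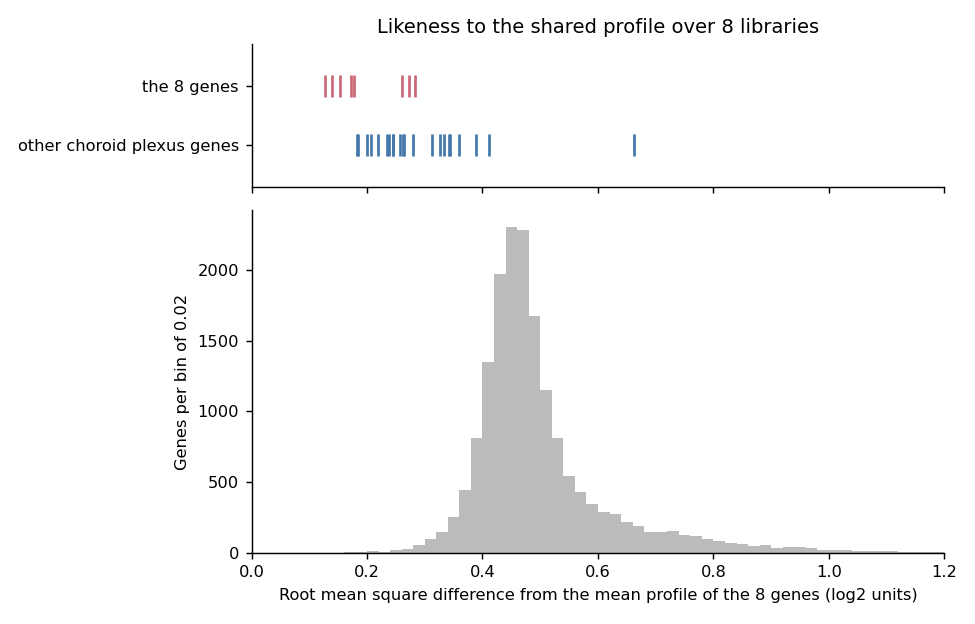
Upper panel, the root mean square difference from the shared profile for the 8 genes (red ticks, 0.127 to 0.284) and for 22 other choroid plexus genes (blue ticks). Lower panel, the same measure for all 17145 genes in bins of 0.02, drawn up to 1.2, with a median of 0.469 to the right of nearly all ticks.

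Outside both lists, the 10 genes closest to the profile were Lbp at 0.0927, Paqr6 at 0.172, Mkrn3 at 0.176, 8430422M14Rik at 0.196, Sema3b and Csrp2 at 0.206, Fhl3 at 0.208, Eps8l2 and Car13 at 0.214 and Tmem255b at 0.215. Lbp, which encodes the lipopolysaccharide-binding protein, was the closest of all genes, the 8 choroid plexus genes included. Its normalized counts were 90.6, 115, 142 and 75.5 in L192P replicates 1 to 4 and 107, 147, 77.1 and 69.1 in WT replicates 1 to 4, the same order of high and low libraries within each genotype as for Ttr. Its log2 fold change was 0.06, and like the other 9 genes it was not called.

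Markers of neighbouring cells and regions were read beside these values, since the dissected tissue could hold more or less of them. The ependymal list had 0 of 11 tested genes called by DESeq2, edgeR or limma-voom and 1 at an unadjusted DESeq2 p under 0.05, with all 11 above 0, a median log2 fold change of 0.19 and summed normalized counts of 885 to 1160 in L192P and 797 to 960.3 in WT. Its largest log2 fold change was that of Tmem212, at 0.97 (DESeq2 adjusted p = 0.456). Among its 12 genes only Mia was at 0, in all L192P libraries, with at most 1.13 normalized counts in WT. The course of this list differed from the shared profile by 0.367, while that of the wider choroid plexus list differed by 0.129.

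Fibroblast genes, which mark meninges and stroma, differed between genotypes in part. Of 10 tested, 4 were called and all 4 were higher in L192P, where 0.789% of all genes tested were called higher. They were Slc6a13, a GABA transporter gene (log2 fold change 0.81, DESeq2 adjusted p = 0.0229), Slc22a6, an organic anion transporter gene (0.64, adjusted p = 0.0203), Aldh1a2, which makes retinoic acid (0.80, adjusted p = 0.00195), and Fmod, which encodes fibromodulin of the extracellular matrix (0.68, adjusted p = 0.0386). All 10 were above 0, their median was 0.65, and their summed normalized counts were 1755 to 3147 in L192P and 1410 to 1866 in WT. The largest difference in the list was that of Lum, a matrix proteoglycan gene, at 1.195 (DESeq2 adjusted p = 0.0792). edgeR and limma-voom called 0 of the 10, with 7 at an unadjusted p under 0.05 in each. Without L192P replicate 2, L192P replicate 3, WT replicate 3 or WT replicate 4, each in turn, Aldh1a2 was the 1 gene called, and without WT replicate 2 it was called with Slc6a13. These fits called 112 to 156 genes over the whole table. Other omissions kept or raised the count of fibroblast genes called. It was 7 without L192P replicate 1, in a fit that called 275 of 17125 genes tested, and 7 with replicates 2 to 4 only (500 of 14437). It was 5 without WT replicate 1 (496 of 15318) and 4 without L192P replicate 4 (157 of 16598). With the replicate block, which called 4.25% of the genes it tested, 4 fibroblast genes were called, with Col1a2 in place of Fmod. The list was highest in L192P replicates 3 and 2, at 0.70 and 0.57 on the centred scale, which also led for the choroid plexus genes, but WT replicate 2, second for the choroid plexus genes, was at -0.17. The part of fibroblast RNA in the choroid plexus values was not tested.

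Regions next to the ventricles differed between libraries too. The hippocampus list was at 1.01 in L192P replicate 3 and 0.98 in WT replicate 3 and between -0.92 and 0.00 in the other 6 libraries. DESeq2, edgeR and limma-voom each called 0 of its 8 genes and gave 0 an unadjusted p under 0.05. WT replicate 3 was therefore high for hippocampus genes and low for choroid plexus genes, while L192P replicate 3 was high for both. The gene of that list with the largest log2 fold change, Spink8, was at 0.39 (DESeq2 adjusted p = 0.871). Of 6 thalamus genes, Gbx2 was called, higher in L192P with a log2 fold change of 1.99 (DESeq2 adjusted p = 0.00821), where 0.789% of all genes tested were called higher. Its counts were low, at 15.9 to 46.7 normalized counts in L192P and 4.35 to 9.37 in WT. Gbx2 was not called by edgeR or limma-voom, nor without L192P replicate 1, L192P replicate 3, WT replicate 1 or WT replicate 3. Of 5 hypothalamus genes with an adjusted p, the neuropeptide genes Oxt (4.53, DESeq2 adjusted p = 3.69e-07) and Avp (4.22, adjusted p = 0.000155) were called higher, by edgeR too but not by limma-voom. Oxt was at 145, 19.3, 143 and 155 normalized counts in L192P replicates 1 to 4 and 2.73 to 7.60 in WT. Avp was at 329, 19.3, 459 and 220 in L192P replicates 1 to 4 and 10.5 to 21.9 in WT. For Avp, L192P replicate 2 thus lay within the WT range. Pmch, a hypothalamic neuropeptide gene with no adjusted p, was at 16.8, 2.28, 262 and 0 normalized counts in L192P replicates 1 to 4 and 0 to 3.64 in WT. The cortical neuron list had 0 of 7 called by DESeq2, edgeR or limma-voom, 3 at an unadjusted DESeq2 p under 0.05 and a median of -0.22, with Neurod6 at -0.30 the farthest from 0. Of its 7 genes, 0 were above 0 and 0 had separate groups singly. On the centred scale the list as a whole was at -0.174 to 0.008 in L192P and 0.035 to 0.140 in WT, without overlap. Its summed normalized counts, mostly from Slc17a7, were 37444 to 42231 in L192P and 42722 to 44860 in WT. With the replicate block, which called 4.25% of the genes it tested, Oxt and Gbx2 were not called, and 3 of 7 cortical neuron genes were. The part of these regions in the choroid plexus values was not tested.

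**Figure D5:**
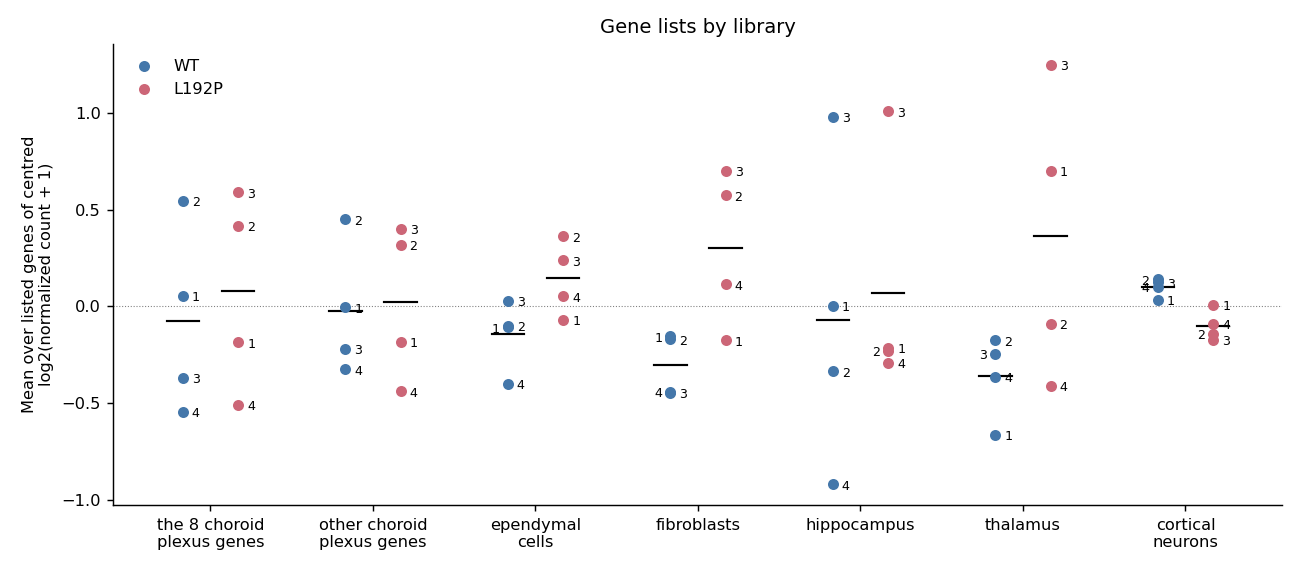
For each list, the mean over its genes of centred log2(normalized count + 1) in the 4 WT and 4 L192P libraries, numbered by replicate, with the group mean as a bar. The 8 choroid plexus genes and the other choroid plexus genes order the libraries alike within each genotype, though their highest and lowest libraries overall differ, whereas the fibroblast, hippocampus and thalamus lists order the libraries differently.

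Astrocyte, oligodendrocyte, microglia and erythroid lists had 0 of 4, 0 of 4, 0 of 3 and 0 of 5 genes called by DESeq2, edgeR or limma-voom. At an unadjusted DESeq2 p under 0.05, 1 microglia gene was found and 0 of the other lists. The microglial receptor gene Cx3cr1 was called with the replicate block, a fit that called 4.25% of the genes it tested. Without L192P replicate 1, where 275 of 17125 genes tested were called, Cx3cr1, P2ry12 and the globin gene Hbb-bs were called. The largest log2 fold changes of these lists in the main fit were -0.13 for Gja1, -0.15 for Mag, 0.33 for Cx3cr1 and 0.45 for Hbb-bs. Each list stood between 0.426 and 0.464 from the shared profile, about as far as a constant level would (0.440), but none was constant. On the centred scale the astrocyte list ran from -0.40 to 0.16 and the oligodendrocyte list from -0.31 to 0.25. The microglia list ran from -0.46 to 0.44 and the erythroid list from -0.67 to 0.44.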

How the data were processed

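The authors extracted RNA with an RNeasy micro kit, prepared TruSeq Stranded mRNA libraries, aligned reads to GRCm39 with STAR and tallied them per gene with featureCounts 1.5.1, and deposited these counts for each library without pooling. The authors also deposited a signal table of the same counts divided by DESeq2 size factors, which served only as a check of the size factors. The strand setting was not given in the sources used here.

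Counts were fitted with DESeq2 1.42.0 in R 4.3.3 (genotype as the only term, independent filtering at 0.05, default Cook filter), after the study's methods, with a call at an adjusted p under 0.05 over all genes. Fold changes were not shrunk, and 95% intervals are normal. Alternatives were edgeR 4.0.16 (quasi-likelihood), limma 3.58.1 (voom), other size factors and filters, each library left out, only replicates 2 to 4, a replicate block and, chosen after seeing the data, Ttr as covariate. All programs were tested on simulated counts.

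Members and lists were chosen with earlier results of these data known. Named genes were the 8 members, of the wider list any called gene and the 6 with the highest mean, the 10 genes nearest the shared profile, and in other lists any called gene, the largest fold change and markers that check the tissue. A further marker list is not reported here.

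Libraries of 1 genotype differed by a chi-square per degree of freedom of 5.52 to 22.6, more than counting error alone would give. Each was counted as a replicate, though this measure cannot show that they came from separate animals. Residuals of same-numbered libraries correlated at 0.23 to 0.63 over 13422 genes and those of others at -0.38 to 0.14. The labels do not say what the numbers mean. Pairing by number was therefore used only in the replicate block and in the side-by-side values of same-numbered libraries. The main DESeq2 fit, its SEs and intervals, and the exact permutations did not use it. Positions and exon lengths came from GENCODE M39 (GRCm39), which held 98.8% of the gene identifiers.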

Additional observations from a re-analysis of the deposited data

Results flagged for a closer look

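Gaps within each group of 4 libraries were screened for the 8 genes, the 6 named genes of the wider list and the shared profile, 30 groups in all, of which chance would mark about 1.5 at a rate of 1 in 20. In 2 groups, 1 library stood apart. Folr1 had 232 normalized counts in WT replicate 2 and 89.0 to 112 in the other WT libraries, and Enpp2 had 17259.6 in WT replicate 2 and 12251 to 12410.3 in the others. WT replicate 2 was also the deepest library.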

How the results depend on the processing

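The count of called genes over the whole table, 253, was 53 with edgeR, 45 with limma-voom, 500 with replicates 2 to 4 only and 112 to 496 when 1 library was left out, and with the replicate block, which takes the labels' numbers as pairing, it was 533. Of the 8 genes, 0 were called under every alternative but 1. Leaving out 1 library gave 0 to 1 called and 0 to 1 with separate groups, and the 1 was Prlr without WT replicate 2 in both cases. The wider list had 1 gene called with Ttr as covariate and 0 otherwise. The block changed no call among these genes.

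Ttr and Prlr stayed above 0 under all alternatives, at 0.17 to 0.58 and 0.25 to 0.64. Small log2 fold changes turned sign. With 1 library left out, Kl ran from -0.21 to 0.17, Folr1 from 0.10 to 0.69 without turning, Clic6 from -0.064 to 0.19, Sostdc1 from -0.030 to 0.32, Aqp1 from -0.33 to 0.29 and Cldn2 from -0.27 to 0.35. With replicates 2 to 4 only, Kl was at 0.017 and Aqp1 at 0.13, and with limma-voom Cldn2 was at -0.035. With Ttr as covariate, Folr1 was at -0.056, Clic6 at -0.15, Sostdc1 at -0.10 and Cldn2 at -0.35. Causes of these changes beyond the libraries or terms named were not tested. Beside the spread between 4 libraries, counts of 40 to 410 for Folr1, Aqp1 and Cldn2 limit the precision of single values.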
